A study of Homo sapiens with 12 samples.

Results

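The DNAJ family are the J-domain co-chaperones of HSP70. Members were chosen by name alone, as the protein-coding rows of the deposited table whose symbol is DNAJA, DNAJB or DNAJC followed by a digit. This gave 45 genes of 58676 rows, 19821 of them protein-coding. They were 4 class A, 12 class B and 29 class C genes. A mean of at least 1 FPKM (a level scaled to gene length and to the reads assigned in the library) over all libraries was required for testing, and 35 members passed, 3 of class A, 8 of class B and 24 of class C. No member that passed had a mean under 1 FPKM in the 6 vehicle libraries or in the 6 bortezomib libraries. RNA was sequenced from A549, an established human lung carcinoma line, in 12 libraries. There were 3 lines, labelled Control1, NFE2L1 KO1 and NFE2L1 KO2, called here the control line, KO1 and KO2. Each received DMSO vehicle or 200 nM bortezomib, a proteasome inhibitor, for 4 h, and each of the 6 groups had 2 libraries. The labels do not say whether a knockout line is 1 clone, how the gene was cut or whether the 2 libraries of a group came from separate cultures, so p-values measure the spread between these libraries only.

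J-domain proteins set off ATP hydrolysis by HSP70, which locks a client in place. Many of them, though not all, also bind unfolded clients and pass them to HSP70. Class A proteins carry the J domain, a glycine and phenylalanine rich stretch and a zinc finger region, class B proteins lack the zinc finger, and class C proteins share little beyond the J domain. Classes A and B hold the general folding partners of the cytosol, whereas many class C members tie HSP70 to 1 place or task, such as the endoplasmic reticulum (ER), the mitochondrial import motor or the clathrin coat. When the proteasome is blocked, misfolded proteins build up, and heat shock factor HSF1 is known to turn on a set of chaperone genes.

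Depth was 13211608 to 23819258 reads assigned to genes per library. NFE2L1 stood at 72.7 and 151 FPKM with vehicle and 109 and 189 with bortezomib in the control line, at 8.45 to 35.8 in KO1 and at 18.6 to 50.8 in KO2, so every knockout library lay below every control library, but none was near 0. The epithelial and A549 markers KRT8, KRT18, KRT7, AKR1B10 and ALDH1A1 were above 100 FPKM in all libraries, AKR1C1 ranged from 6.23 to 54.3 and EPCAM from 1.25 to 10.6. PTPRC, CD3E, PECAM1 and VWF, which mark leukocytes and endothelium, were at or below 0.0602 FPKM. Of the fibroblast markers, COL3A1 was at or below 0.225 and COL1A1 ranged from 1.42 to 23.3. In each group 1 library carries the suffix R2, and it differed from its partner (suffix R1, or none in the control line). Mitochondrial transcripts took 12.3 to 19.3% of reads in the R2 libraries against 5.44 to 6.80% in their partners. Across genes this difference correlated between every pair of groups (r = 0.70 to 0.89, a description over genes), so each result is given both without and with the suffix as a replicate block. Values below are listed with the R1 or unnumbered library first and R2 second.

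In vehicle, DNAJA1 was the most abundant member by FPKM. Its mean in the control line was 103.9 ± 36.6 (SD, n = 2), followed by DNAJB1 at 33.4 ± 11.5. DNAJC1, an ER membrane protein that recruits the ER HSP70 near the ribosome, was next at 25.7 ± 14.1, and DNAJB12, an ER membrane member that works in disposal of misfolded proteins, stood at 24.2 ± 10.7. The spread between the pair of libraries was wide, so DNAJB1, DNAJC1, DNAJB12 and DNAJC8 (19.5 ± 13.3) cannot be put in order beyond it. The medians of tested members were 15.1 FPKM in class A, 7.73 in class B and 6.66 in class C. In class A, DNAJA2 (15.1) and DNAJA3 (14.1), a protein of the mitochondrial matrix, were the lowest. In class B the lowest were DNAJB6 (6.27) and DNAJB4 (6.18), both close to DNAJB14 (6.28). In class C the lowest were DNAJC27, a small GTPase with a J domain, at 1.20 and DNAJC17, a splicing-associated member, at 0.989.

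Bortezomib raised the cytosolic folding partners most. DNAJB1, the classic stress-induced HSP40, stood at 41.6 and 25.3 FPKM with vehicle and at 297 and 131 with bortezomib in the control line, at 48.0 and 20.9 against 407 and 189.6 in KO1, and at 54.8 and 27.98 against 331 and 218 in KO2. Bortezomib libraries were 5.18 to 9.08 times their vehicle partners, and the groups did not overlap in any line. DNAJB4, a close relative of DNAJB1, stood at 8.31 and 4.04 against 31.8 and 15.99 in the control line, at 6.42 and 3.39 against 34.4 and 14.5 in KO1, and at 9.40 and 4.97 against 37.3 and 20.8 in KO2. DNAJB6, which holds back the aggregation of polyglutamine proteins, stood at 8.04 and 4.504 against 25.1 and 16.9 in the control line, at 7.47 and 4.21 against 28.6 and 21.2 in KO1, and at 9.05 and 5.49 against 33.7 and 23.6 in KO2. Each of these was 3.12 to 5.36 times higher across the 6 pairs, again with no overlap. DNAJA1, a general partner of HSPA8 in the cytosol, stood at 129.8 and 78.1 against 376 and 159 in the control line, at 174 and 67.5 against 499 and 222 in KO1, and at 181 and 85.7 against 509 and 257 in KO2. DNAJA1 was 2.04 to 3.29 times higher, and its lowest bortezomib value in each line was above the highest vehicle value there. In bulk RNA, more transcript per cell and more cells with the transcript cannot be told apart.

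**Figure D1:**
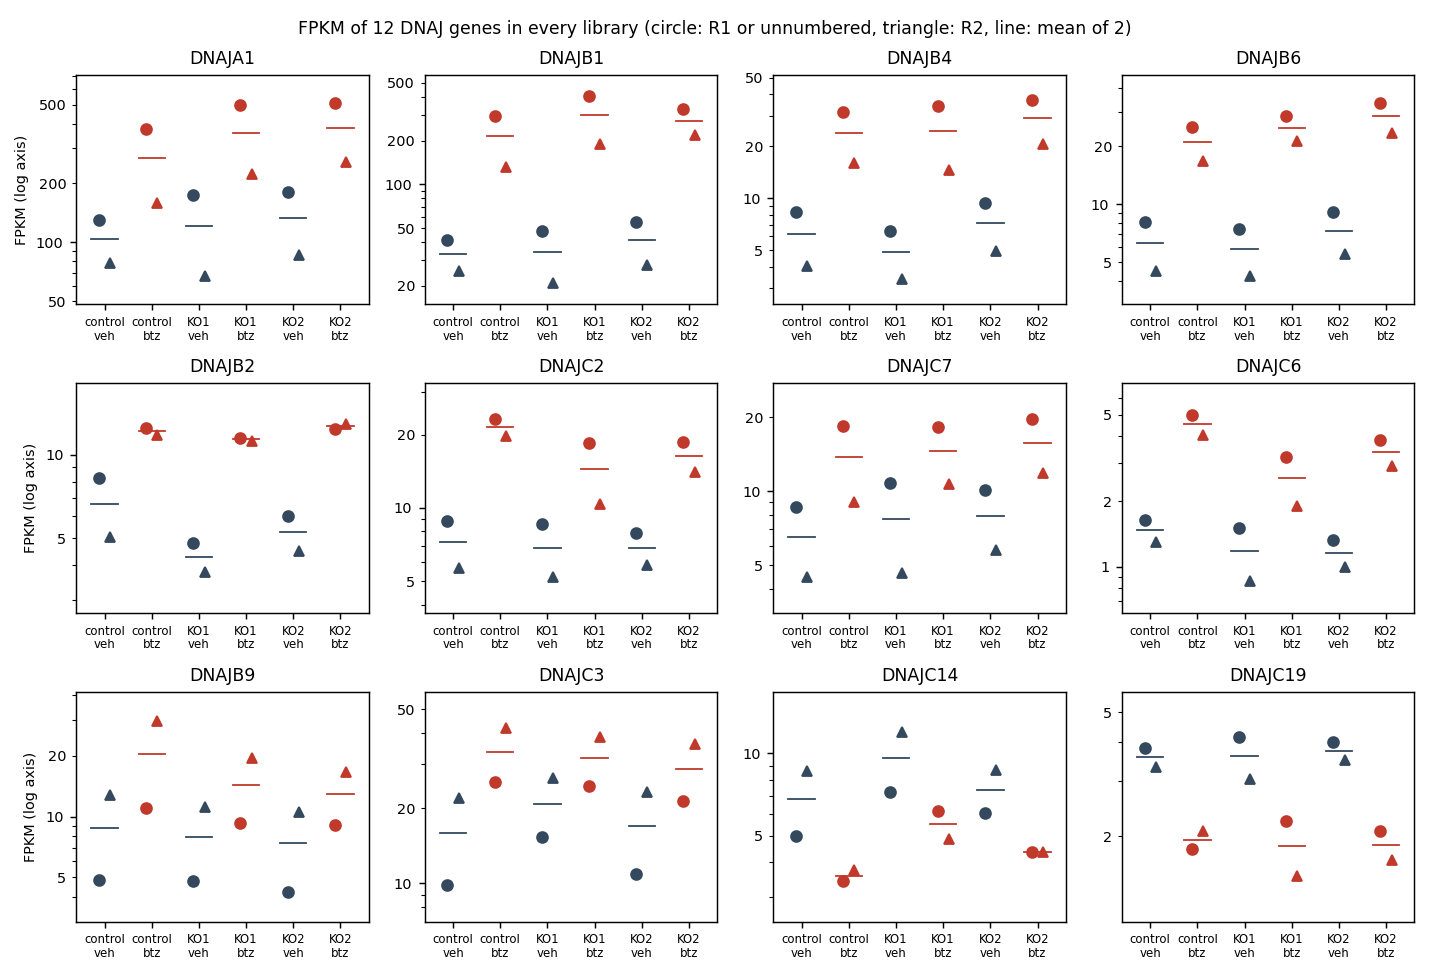
FPKM (log axis) of 12 DNAJ genes in the 6 groups (veh, vehicle; btz, bortezomib), with a circle for the R1 or unnumbered library, a triangle for R2 and a line at their mean. DNAJB1 with bortezomib lies between 131 and 407 FPKM, above all its vehicle libraries; R2 lies below its partner for DNAJA1 and DNAJB1 and above it for DNAJB9 and DNAJC3.

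Averaged over the 3 lines, 7 of 35 tested members passed an adjusted p of 0.05 in limma without the block, 6 higher and 1 lower, against 11.6% of the 12194 genes tested (4.85% higher, 6.76% lower). Log2 changes are differences of log2(FPKM + 1), which makes those of low genes smaller than their FPKM ratios. The change was 2.80 ± 0.38 (SE) for DNAJB1 (adjusted p = 0.0022), 1.90 ± 0.33 for DNAJB4 (0.0067) and 1.81 ± 0.24 for DNAJB6 (0.0023). DNAJA1 changed by 1.47 ± 0.42 and missed the threshold (adjusted p = 0.0507); with the block its SE was 0.10 and its adjusted p 6.0e-06. With the block, 24 members passed, 16 higher and 8 lower, against 54.9% of all genes tested (27% higher, 27.9% lower). Within 1 line no member passed without the block, although 8, 7 and 7 members had an unadjusted p under 0.05. The shares of all genes that passed there were 0.467% (control), 0.238% (KO1) and 0.32% (KO2). With the block, 17 members passed in the control line (13 higher, 4 lower), against 32.4% of all genes (16.1% higher, 16.4% lower). KO1 had 16 (14 and 2), against 27.7% (13.9% and 13.8%), and KO2 had 14 (12 and 2), against 27% (12.7% and 14.4%). These counts move by over 1.5 times on leaving out 1 library: without either R2 library of the control line its count was 11, without the R1 or the R2 bortezomib library of KO1 that line had 10 or 9, and without the R1 vehicle or R1 bortezomib library of KO2 that line had 9. The 11 higher in every line with the block were DNAJA1, DNAJB1, DNAJB2, DNAJB4, DNAJB6, DNAJB9, DNAJC2, DNAJC3, DNAJC6, DNAJC7 and DNAJC21, and DNAJC19 alone was lower in every line.

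**Figure D2:**
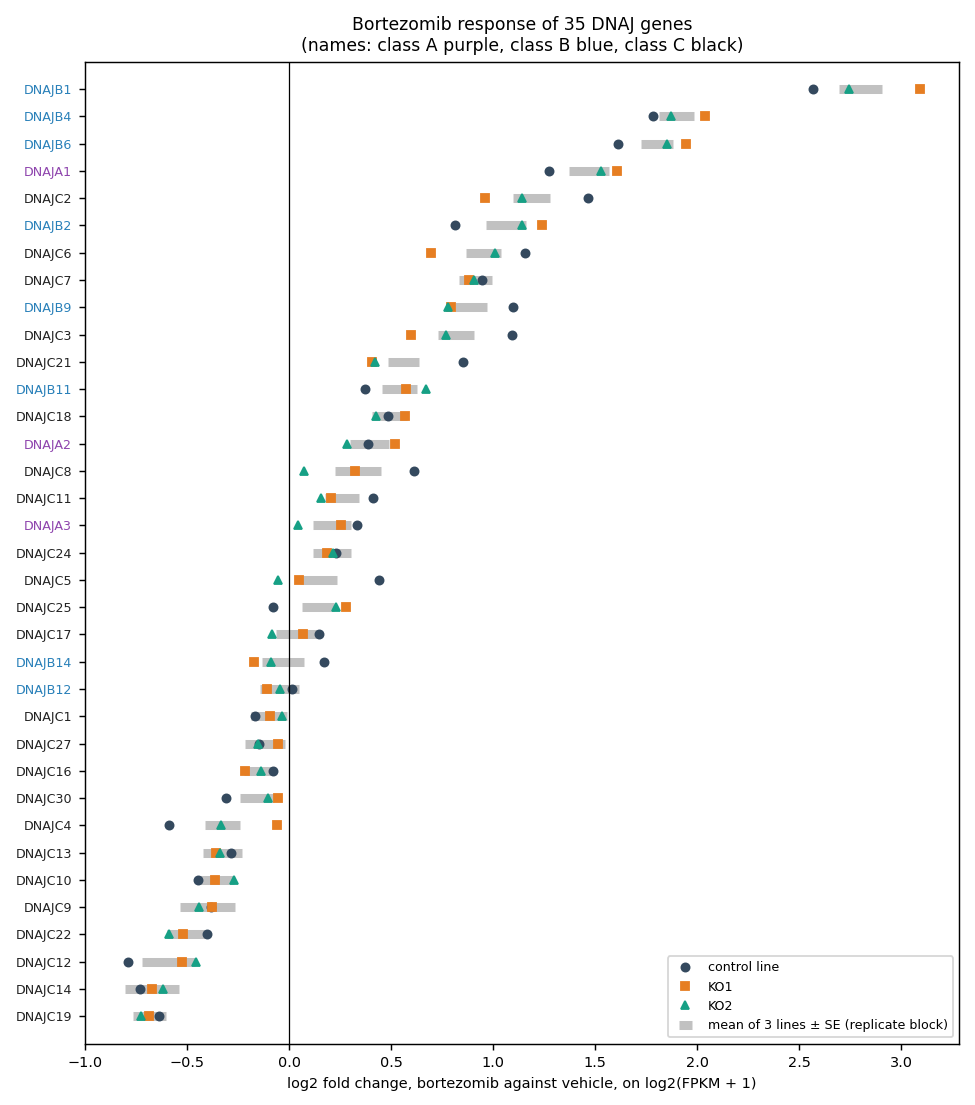
Log2 fold change of bortezomib against vehicle, on log2(FPKM + 1), for the 35 tested members (1 row each) in the control line (circles), KO1 (squares) and KO2 (triangles); grey bars are the mean of the 3 lines ± SE with the replicate block. DNAJB1 is at the top with a mean of 2.80 and DNAJC19 at the bottom with -0.69.

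Side by side, the classes differed in their middle values. The median log2 change over the 3 lines was 0.40 for the 3 tested class A members, 0.98 for the 8 of class B and -0.03 for the 24 of class C, against -0.0075 for all genes tested. With the block, 2 of 3 class A members were higher and none lower, 6 of 8 class B members were higher and none lower, and class C had 8 higher and 8 lower, where 27% of all genes tested were higher and 27.9% lower. Class C, at 8 of 24 in each direction, lay near that share. Grouped by place of action, the 12 tested members of the cytosol and nucleus had a median of 0.99, with 9 higher and 2 lower with the block. The 11 ER members had a median of -0.03 with 4 higher and 2 lower, which is also near the share of all genes, the 5 of mitochondria -0.16 with 1 and 2, the 4 of vesicles and clathrin 0.01 with 1 and 1, and the 2 of the spliceosome 0.19 with 1 and 0. Within class B, the 4 cytosolic members changed by 1.06 to 2.80. Of its 4 ER members, DNAJB9 (0.89) and DNAJB11 (0.54) passed with the block and were higher in 6 of 6 pairs, while the membrane proteins DNAJB12 (-0.05) and DNAJB14 (-0.03) passed in neither fit. A count of direction that needs no model gave 16 members higher with bortezomib in 6 of 6 pairs (24.8% of all genes tested were), 7 lower in 6 of 6 (23.8% of all genes) and 12 mixed. In 10 members the bortezomib and vehicle libraries did not overlap in any of the 3 lines, as in 17% of all genes tested.

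Beyond the leading members, 5 more of the cytosol and nucleus were higher. DNAJB2, which binds ubiquitin and is known to bring clients to the proteasome, stood at 8.25 and 5.03 FPKM against 12.5 and 11.8 in the control line, at 4.79 and 3.76 against 11.5 and 11.2 in KO1, and at 6.0 and 4.49 against 12.4 and 13.0 in KO2. Its groups did not overlap, and the mean change was 1.06 ± 0.17 (adjusted p = 0.0050 without the block). DNAJC2, a ribosome-bound partner of HSP70 on nascent chains, stood at 8.83 and 5.69 against 23.3 and 19.7 in the control line, at 8.56 and 5.18 against 18.6 and 10.4 in KO1, and at 7.90 and 5.84 against 18.6 and 14.1 in KO2. It rose by 1.19 ± 0.22 (adjusted p = 0.0102), with its highest bortezomib values in the control line. DNAJC7, whose tetratricopeptide repeats bind HSP70 and HSP90, stood at 8.60 and 4.46 against 18.5 and 9.01 in the control line, at 10.8 and 4.64 against 18.4 and 10.7 in KO1, and at 10.1 and 5.78 against 19.7 and 11.8 in KO2. Its groups overlapped in KO1, and its mean change of 0.91 passed with the block only (adjusted p = 0.087 without, 3.0e-05 with). DNAJC21, a factor of ribosome maturation, changed by 0.56 (0.26 without, 0.00029 with), and DNAJA2, a second cytosolic class A partner of HSPA8, by 0.40 (0.58 and 0.0067). DNAJA2 ranged from 8.79 to 26.2 FPKM in vehicle and from 12.2 to 31.8 in bortezomib, with overlap in all 3 lines.

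In the vesicle group, DNAJC6 (auxilin, which recruits HSPA8 to strip clathrin coats) was low but rose in every pair. It stood at 1.65 and 1.30 FPKM against 4.999 and 4.05 in the control line, at 1.502 and 0.86 against 3.20 and 1.90 in KO1, and at 1.33 and 1.0 against 3.81 and 2.91 in KO2. The mean change was 0.95 ± 0.16 (adjusted p = 0.0061 without the block). DNAJC13, an endosomal sorting protein, changed by -0.33 and passed with the block only (adjusted p = 0.015). DNAJC5, the cysteine string protein of secretory vesicles, and DNAJC27 passed in neither fit, with changes of 0.14 and -0.12.

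Among ER members, 3 partners of the ER HSP70 HSPA5 were higher with the block. DNAJB9, which the unfolded protein response is known to induce, stood at 4.85 and 12.8 FPKM against 11.03 and 29.8 in the control line, at 4.80 and 11.1 against 9.31 and 19.5 in KO1, and at 4.22 and 10.6 against 9.05 and 16.7 in KO2. Within each pair it was 1.58 to 2.33 times higher, yet in every line the first bortezomib library was below the R2 vehicle library. Its mean change of 0.89 missed the threshold without the block (adjusted p = 0.18) and passed with it (2.5e-05). DNAJC3, a lumenal co-chaperone also known as an inhibitor of eIF2 alpha kinases, stood at 9.84 and 22.1 against 25.4 and 42.0 in the control line, at 15.3 and 26.4 against 24.6 and 38.8 in KO1, and at 10.9 and 23.1 against 21.4 and 36.2 in KO2. It changed by 0.82 (adjusted p = 0.13 without the block, 9.0e-05 with it), and its groups overlapped in both knockout lines. DNAJB11, a lumenal cofactor of HSPA5, ranged from 5.12 to 14.8 in vehicle and from 7.97 to 19.8 in bortezomib and changed by 0.54 (0.36 and 0.00069). DNAJC18, an ER membrane member, ranged from 1.29 to 3.40 in vehicle and from 2.03 to 4.76 in bortezomib and changed by 0.49 (0.14 and 0.0012). DNAJC10, an ER reductase that opens disulfides in proteins on the way to degradation, changed the other way by -0.36 (0.46 and 0.0089). DNAJC1, DNAJC16 and DNAJC25 passed in neither fit, with changes of -0.10, -0.14 and 0.14.

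The lower members were all of class C. DNAJC19, a subunit that stimulates the mitochondrial HSP70 of the import motor, stood at 3.84 and 3.34 FPKM against 1.82 and 2.07 in the control line, at 4.16 and 3.06 against 2.24 and 1.49 in KO1, and at 4.01 and 3.52 against 2.08 and 1.68 in KO2. Bortezomib libraries were 0.475 to 0.621 times their partners without overlap, and the mean change was -0.69 ± 0.14 (adjusted p = 0.015 without the block). The adjusted p moved just past the threshold without the first control-line bortezomib library (change -0.66, adjusted p = 0.0522), without the KO2 bortezomib R2 library (-0.65, 0.0525), and after rescaling FPKM to a common sum (-0.84, 0.0538), with the change at a like size or larger. DNAJC14, an ER membrane protein known in receptor export, stood at 5.0 and 8.58 against 3.41 and 3.74 in the control line, at 7.19 and 11.96 against 6.14 and 4.86 in KO1, and at 6.03 and 8.66 against 4.35 and 4.38 in KO2. Its groups did not overlap in any line, and its change of -0.67 ± 0.19 narrowly missed without the block (adjusted p = 0.0524; 0.0024 with it). DNAJC12, a co-chaperone of the aromatic amino acid hydroxylases, ranged from 2.70 to 9.61 in vehicle and from 1.60 to 4.75 in bortezomib and changed by -0.59 (0.19 without the block, 0.0039 with it). DNAJC22, a membrane-spanning member, ranged from 9.58 to 34.1 in vehicle and from 6.06 to 20.2 in bortezomib and changed by -0.50 (0.47 and 0.0017). DNAJC9, a histone chaperone, changed by -0.40 (0.42 and 0.029), and the mitochondrial DNAJC4 by -0.33 (0.18 and 0.0099). In the control line alone DNAJC4 changed by -0.59 (adjusted p = 0.016 with the block), against -0.06 in KO1 and -0.34 in KO2.

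Of the rest, DNAJC8, a spliceosome-associated protein, ranged from 8.32 to 30.1 FPKM in vehicle and from 12.8 to 37.3 in bortezomib and changed by 0.34 (0.69 without the block, 0.030 with it). DNAJC11, of the mitochondrial cristae complex, changed by 0.26 (0.38 and 0.025) and did not overlap in any line. DNAJA3, DNAJC17, DNAJC24 and DNAJC30 passed in neither fit, with changes from -0.16 to 0.21.

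Summed over the family, FPKM ran from 404 to 527 in vehicle libraries and from 685 to 1300.02 in bortezomib libraries. DNAJA1 and DNAJB1 together took 21.9 to 44.7% of that sum in vehicle and 42.3 to 69.7% in bortezomib. The share of DNAJB1 alone was 5.17 to 10.4% against 19.1 to 31.3%. The sum did not overlap between treatments, while the ranges of the joint share did. In every group the sum was lower in R2 than in its partner.

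**Figure D3:**
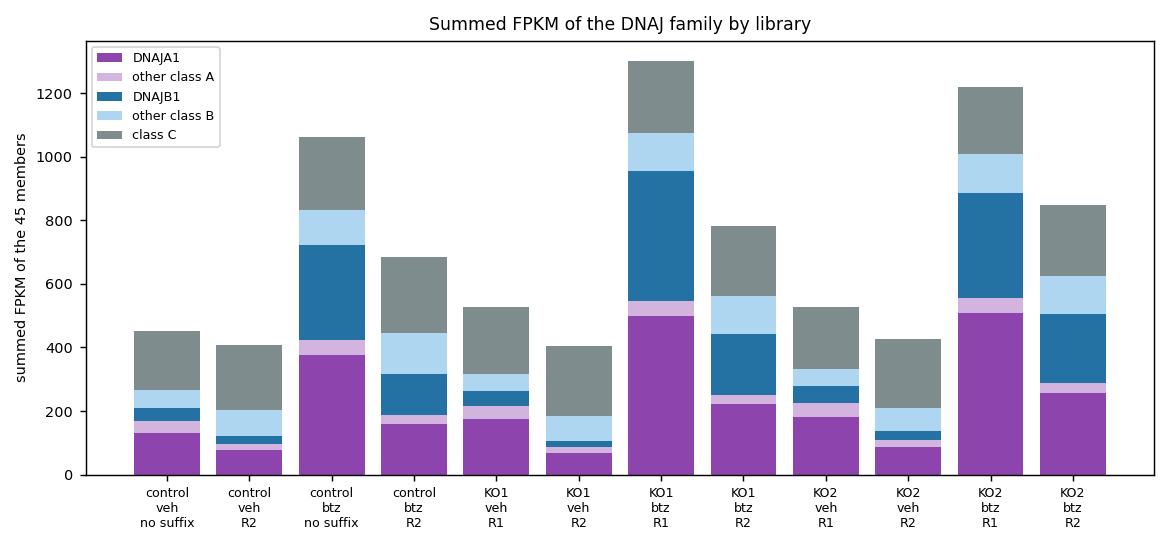
Summed FPKM of the 45 members in each of the 12 libraries (veh, vehicle; btz, bortezomib), split into DNAJA1, other class A, DNAJB1, other class B and class C. Vehicle bars reach 404 to 527 and bortezomib bars 685 to 1300.02; the DNAJA1 and DNAJB1 blocks grow most.

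As a description, promoters of the members were read from RefSeq (GRCh38.p14), from 250 bases before to 50 after each start. The heat shock element to which HSF1 binds was searched for. RefSeq windows were found for 41 of 45 members (53 windows). The motif searched was GAANNTTC or TTCNNGAA, which holds 2 units and reads the same on both strands. It was in 9 of 53 member windows (17.0%) and in 13.5% of all 35116 windows. The genes were DNAJA1, DNAJB1, DNAJB4, DNAJB6 and DNAJC6 among tested members, and DNAJA4, DNAJB7 and DNAJC15 among those not tested. The latter stayed low in both treatments, with peaks of 0.169 (DNAJA4), 0.185 (DNAJB7) and 0.129 FPKM (DNAJC15). The DNAJC6 match lies after the start, at positions 43 to 50 counted from it. All 5 tested genes with a match were higher in 6 of 6 pairs (median change 1.81, range 0.95 to 2.80), against 10 of 27 tested members with a window and no match (median 0.14, range -0.69 to 1.19). Of all genes tested 24.8% were higher in 6 of 6 pairs. Outside the family, 30.3% of the 1112 tested genes with the motif in a window were, against 26.2% of the 7328 with a window and no match. The 3-unit form, in which a further GAA or TTC unit follows the 2-unit form after 2 bases, was in 0.490% of all windows and in those of DNAJA1 and DNAJB6. The stretches below show these matches in the 4 members with the largest changes, in the direction of transcription, with the matched letters in capitals. They lie at chr19:14518417-14518494 (minus strand), chr1:78004821-78004868 (plus), chr7:157336853-157336905 (plus), and, for DNAJA1 on the plus strand, chr9:33025055-33025102 and chr9:33025264-33025293, the second of which spans the start.
DNAJB1: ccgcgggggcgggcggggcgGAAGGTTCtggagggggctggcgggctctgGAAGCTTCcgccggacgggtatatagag
DNAJB4: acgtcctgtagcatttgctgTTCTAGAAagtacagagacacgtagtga
DNAJB6: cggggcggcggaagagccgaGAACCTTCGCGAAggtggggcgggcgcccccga
DNAJA1 upstream: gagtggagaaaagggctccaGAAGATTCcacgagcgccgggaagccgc
DNAJA1 at the start: gcgcgccgggcgGAACTTTCCAGAAcgctc
Counted from the start, with the base before it as -1, the matches begin at -77 and -47 in DNAJB1, at -98 in DNAJB4, at -131 in DNAJB6, and at -198 and 4 in DNAJA1. A second DNAJB1 start has a window with 1 more match, beginning at 2. DNAJB2, DNAJC2 and DNAJC7, which also changed, have windows without these letters. A letter match is a description and not a measured binding site. A gene counted as matched if any of its windows held the motif. The matched windows of DNAJB4 and DNAJC6 lie inside their gene spans, away from the first base of the gene. Which starts are used in these cells, and whether the motif bears on the response, was not tested. An ATF4-type motif (TGATGNAA, 3.62% of all windows) was found in DNAJA4 alone, an antioxidant-type motif (TGA and GCA spaced 4 bases apart, 12.5%) in DNAJA4 and DNAJC30, and the ER stress pair of CCAAT and CCACG spaced 9 bases apart (0.0769%) in no member window.

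The HSP70 side of the system was counted on 29 listed genes (HSP70 and HSP110 proteins, nucleotide exchange factors and linkers), tested as 30 rows because HSPA14 has 2 identifiers. Of these, 3 rows had a mean under 1 FPKM in 1 treatment and passed the filter through the other, and were left out of the counts. They were HSPA6, a strictly stress-induced HSP70, at 0.131 to 0.406 FPKM in vehicle and 216 to 351 in bortezomib, HSPA1L (0.525 to 1.56 and 0.363 to 2.11) and HSPA12B (1.71 to 2.26 and 0.583 to 1.16). Of the other 27 rows, 2 were higher in each line without the block. The shares of all genes that passed there in either direction were 0.467% (control), 0.238% (KO1) and 0.32% (KO2). In the mean of the lines 9 rows were higher and 0 lower, where 4.85% of all genes tested were higher and 6.76% lower. With the block the mean gave 18 higher and 1 lower, against 27% and 27.9% of all genes. The stress-induced HSP70 genes HSPA1A and HSPA1B, near-identical copies between which reads can be split, rose by 4.54 and 4.59 on the log2 scale (adjusted p = 0.00014 and 6.1e-05 without the block). HSPH1, an HSP110 exchange factor, rose by 2.54 (0.0019) and BAG3, a nucleotide exchange factor linked to autophagy, by 2.89 (0.0021). HSPA5, the HSP70 of the ER, rose by 1.31 (0.028), whereas HSPA8, the constitutive cytosolic HSP70, changed by 0.73 and passed with the block only (0.25 without, 0.00064 with).

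Loss of NFE2L1, a transcription factor known to act on proteasome genes, was compared with the control line. In vehicle no member passed in KO1, KO2 or their mean, without or with the block. Without the block 0.213%, 0.23% and 0.344% of all genes passed and 0 members had an unadjusted p under 0.05. With it 5.95%, 4.91% and 6.18% passed, and 1, 5 and 4 members had an unadjusted p under 0.05. With voom in limma on recovered reads and the block, 2 members passed in KO2: DNAJC18 (-0.84, adjusted p = 0.037) and DNAJC22 (0.66, adjusted p = 0.047). DNAJC18 stood at 1.56 and 3.40 FPKM in the control line, 1.65 and 2.80 in KO1 and 1.29 and 1.81 in KO2. DNAJC22 stood at 9.58 and 18.4, 11.1 and 24.4, and 12.04 and 34.1. The groups of both overlapped. On log2(FPKM + 1) with the block, their changes in KO2 were -0.59 ± 0.17 (adjusted p = 0.099) and 0.62 ± 0.19 (0.11).

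With bortezomib no member passed without the block in the mean of the knockout lines (0.164% of all genes did, and 0 members had an unadjusted p under 0.05). With the block 1 member was lower, against 7.66% of all genes (3.9% higher, 3.76% lower). It was DNAJB9, whose bortezomib values were 11.03 and 29.8 FPKM in the control line, 9.31 and 19.5 in KO1, and 9.05 and 16.7 in KO2. Its change was -0.61 ± 0.14 with the block (adjusted p = 0.035) and -0.47 ± 0.58 without it. Both knockout lines were below the control line in each of the first and R2 libraries, by more in R2. The call was lost on leaving out any 1 of 9 libraries, and averaged over treatments this fit compares lines through the R2 libraries alone. DNAJC6 was at 4.999 and 4.05 in the control line, 3.20 and 1.90 in KO1 and 3.81 and 2.91 in KO2, with every knockout library below the control libraries. Its change was -0.57 ± 0.15 (adjusted p = 0.057 with the block, 0.96 without). DNAJC2 changed by -0.56 ± 0.16 (0.075 with the block), and its control libraries (23.3 and 19.7) were above all 4 knockout libraries. Its span overlaps PMPCB and PSMC2 on the opposite strand, and whether reads of these genes enter its values was not tested. Where the block treats the unnumbered libraries as R1, DNAJC6 and DNAJC2 passed as well, with changes of -0.50 and -0.48 (adjusted p = 0.029 and 0.038). With voom in limma on recovered reads and the block they also passed (-0.77 and -0.60, adjusted p = 0.014 and 0.035). With the block and a common sum no member passed. DNAJA1 and DNAJB1 were 0.42 ± 0.18 and 0.46 ± 0.20 higher in the knockout lines with bortezomib (adjusted p = 0.20 and 0.19 with the block). DNAJC12 had the widest difference in size, 0.71 ± 0.24 with the block, and did not pass (adjusted p = 0.11). Its knockout libraries (3.03 to 4.75) were all above its control libraries (2.75 and 1.60). The same held for DNAJC14 (4.35 to 6.14 against 3.41 and 3.74). So members separated from the control line in either direction, and the share of all genes with such a separation was not counted.

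**Figure D4:**
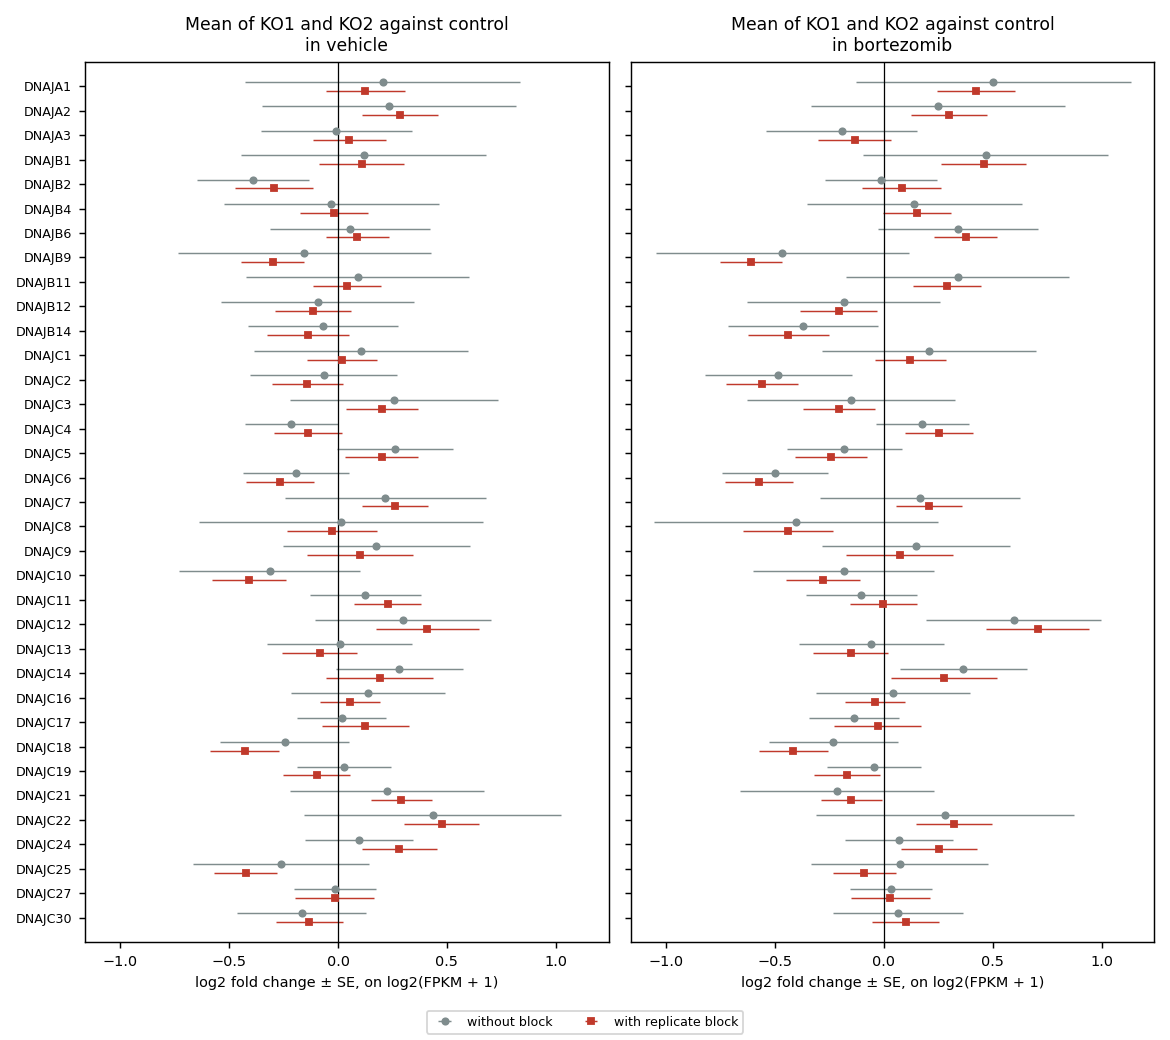
Log2 fold change ± SE, on log2(FPKM + 1), of the mean of KO1 and KO2 against the control line for the 35 tested members in vehicle (left) and in bortezomib (right), without (circles) and with (squares) the replicate block. The SE of DNAJA1 in bortezomib is 0.63 without and 0.18 with the block; DNAJB9 in bortezomib is at -0.61 with the block.

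Whether the bortezomib response differed between knockout and control lines was tested as an interaction. No member and no gene passed in either fit (0% of all genes with the block). Without the block 0 members had an unadjusted p under 0.05, and with it 2 did. These were DNAJC21 (-0.44 ± 0.16, adjusted p = 0.36) and DNAJC5 (-0.44 ± 0.19, adjusted p = 0.46). For DNAJB1 the difference in response was 0.35 ± 0.23 (adjusted p = 0.64 with the block), so a difference of that size could not be told from the spread.

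The R2 libraries set the ER members apart from those of the cytosol and nucleus. All 11 tested ER members had a mean R2 minus partner difference above 0 on log2(FPKM + 1), with a median of 0.71, and 10 were higher in R2 in all 6 groups, as were 25.2% of all genes tested. Of the 12 members of the cytosol and nucleus, 0 had a mean above 0, the median was -0.77, and 10 were lower in R2 in all 6 groups, as were 44.2% of all genes. The largest positive means were DNAJC22 (1.11) and DNAJB9 (1.10), and the largest negative ones DNAJC8 (-1.22), DNAJA1 (-1.09) and DNAJA2 (-1.08). For all genes tested the median was -0.21. It was -0.21 for the 5 mitochondrial members, -0.15 for the 4 of vesicles and clathrin and -0.65 for the 2 of the spliceosome. How all genes split by place of action was not counted. DNAJC14, the ER exception, ran from -0.29 to 0.67. What differed between the libraries is not given in the labels, and a cause was not tested.

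**Figure D5:**
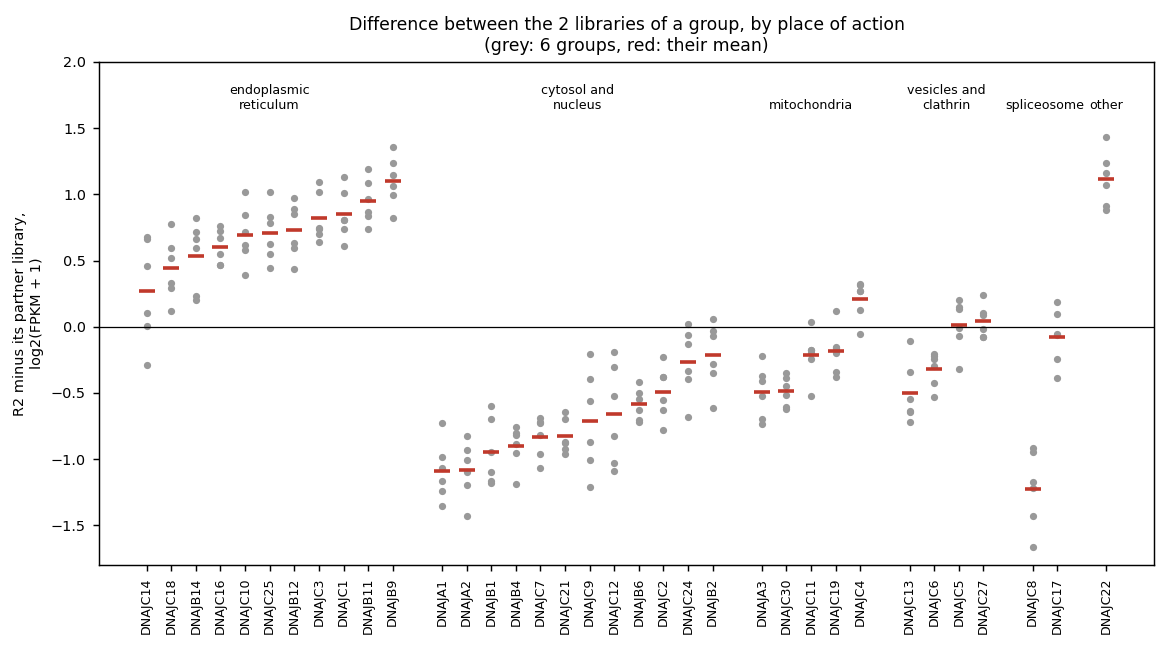
Difference between the R2 library and its partner on log2(FPKM + 1) for the 35 tested members, grouped by place of action; grey points are the 6 groups and red bars their mean. The 11 ER members have means from 0.27 to 1.10 and the 12 of the cytosol and nucleus from -1.09 to -0.22.

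The 10 members not tested were low. DNAJB8 and DNAJC25-GNG10 were at 0 in all libraries, which at 3 reads allows up to 0.0623 and 0.157 FPKM in the shallowest library (counting error only). DNAJC25-GNG10 overlaps DNAJC25 on the same strand. How reads that fit both genes were counted is not given, so the bound may not hold for the read-through gene. DNAJA4, DNAJB7, DNAJB13, DNAJC15, DNAJC28, DNAJC5B and DNAJC5G peaked at 0.0451 to 0.437 FPKM. DNAJB5, a cytosolic class B member, lay just under the limit with a mean of 0.787, against 1.04 for DNAJC17 just above it. DNAJB5 stood at 0.827 and 0.390 in vehicle and 0.278 and 0.261 with bortezomib in the control line, 1.48 and 0.485 against 1.64 and 1.03 in KO1, and 0.875 and 0.423 against 1.014 and 0.738 in KO2. It was lower with bortezomib in both pairs of the control line and higher in all 4 pairs of the knockout lines. In the control line its bortezomib values rest on 23 and 29 reads. DNAJB5 entered only the alternative fit with no filter, and the share of all genes with such a pattern was not counted.

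Some members overlap other genes, whose reads their values may include. Overlaps are given in bases of whole gene spans, introns included, and overlap between exons was not computed. Whether reads were counted by strand is not given in the sources used here, and DNAJB1 overlaps TECR (12686 bases), DNAJC2 overlaps PMPCB (17038) and PSMC2 (620), DNAJB9 overlaps PNPLA8 (99) and THAP5 (183), DNAJC14 overlaps ORMDL2 (920), and DNAJC7 overlaps NKIRAS2 (9995) and CNP (1299), all on opposite strands. TECR averaged 18.2 FPKM against 149 for DNAJB1, and PSMC2 31.4 and PMPCB 14.6 against 12.2 for DNAJC2. NKIRAS2 averaged 10.1 and CNP 10.7 against 11.05 for DNAJC7. Among tested members, protein-coding genes above 1 FPKM also overlap DNAJB11 (TBCCD1), DNAJC4 (NUDT22), DNAJC9 (FAM149B1 and MRPS16) and DNAJC11 (THAP3). They overlap DNAJC16 (AGMAT), DNAJC17 (ZFYVE19) and DNAJC30 (WBSCR22) as well. Of members not tested, DNAJA4 (WDR61), DNAJB7 (XPNPEP3) and DNAJC5G (SLC30A3) have such overlaps. DNAJB4 shares 38423 bases with GIPC2 on the same strand. GIPC2 averaged 0.0174 FPKM against 15.9 for DNAJB4, and how reads that fit both were counted is not given. DNAJC25 shares its span with the read-through gene DNAJC25-GNG10. The 6 DNAJA1 pseudogenes were at 0 in every library.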

How the data were processed

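The deposited table gives FPKM for 58676 genes in 12 libraries, scaled by the authors to reads assigned to genes, since FPKM times the deposited length summed to the same total in each library and gave whole reads for 100% of values (tolerance 0.02 reads). The submitters' processing notes name CASAVA, STAR 2.5, HTSeq 0.6.1, DESeq2 and hg19 without a role; the gene positions are those of GRCh38 (all 58676 IDs are in GENCODE 29, 95.2% at the same position, and 43 of 45 members).

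The 12194 genes whose FPKM averaged 1 or more were fitted on log2(FPKM + 1) with limma 3.58.1 in R 4.3.3 (lmFit, eBayes with trend, 1 mean per group, all 12 libraries), with Benjamini-Hochberg adjustment over all genes and a threshold of 0.05. The replicate block used the title suffix, with the unnumbered control libraries on a level of their own. R2 minus partner differences correlated between all 15 pairs of groups (lowest r = 0.6959), so the R2 libraries share a shift from their partners. Vehicle and bortezomib libraries were paired by suffix. Whether paired libraries came from a shared culture or run is not given. Alternatives were the block with those libraries treated as R1, a pseudocount of 0.1, no filter, a minimum of 5 FPKM, a common sum, voom in limma on recovered reads, and leaving out each library. Leaving out libraries with the block, and the 3-unit motif, were added after seeing the data. The fitting functions were also run on simulated libraries in which the R2 shift was the same in every group. The real shifts differed in part between groups, and no result here rests on that run.

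Named genes are 23 members. Most passed in any comparison without the block, or with it with a log2 change of at least 0.5. The rest are the highest or the lowest tested member of a class in control vehicle. Other members are given by change, range or level. The members and lists were chosen with earlier results of these data known. Python 3.11.15 with pandas 2.3.3 was used for the tables.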

Additional observations from a re-analysis of the deposited data

How the results depend on the processing

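The replicate block decides most calls. For bortezomib in the control line, 0 members passed without it, 17 with it, 16 with the unnumbered libraries treated as R1, 16 with the block and a common sum, and 20 with the block and voom. The same settings gave 16, 17, 13 and 17 in KO1 (0 without), 14, 14, 13 and 16 in KO2 (0 without), and 24, 24, 24 and 25 in the mean of the lines (7 without). For the knockout lines with bortezomib they gave 1, 3, 0 and 3 (0 without), and for KO2 in vehicle voom gave 2 (0 without). Without the block, the mean of the lines gave 8 with a pseudocount of 0.1, 7 with no filter, 5 at a minimum of 5 FPKM, where fewer members were tested, and 6 with a common sum. On leaving out each library it gave 6 to 9, and the other comparisons 0 to 0.

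With the replicate block, leaving out each library gave 11 to 20 members in the control line (11 without either R2 library of that line), 9 to 14 in KO1 (10 and 9 without either bortezomib library), 9 to 14 in KO2 (9 without its first vehicle or first bortezomib library), 20 to 24 in the mean of the lines, and 0 to 1 for the knockout lines with bortezomib. In the latter the call was lost without either library of KO1 bortezomib, either of KO2 vehicle, any of the 4 of the control line, or the R2 library of KO2 bortezomib. The 1 library left in a group is then assumed to vary like the other groups.

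Of 68 gene and comparison values followed over 21 settings, 6 changed sign (DNAJC21 under 2 settings), each without the block and on leaving out 1 library. Over the libraries left out in turn, the change with bortezomib in KO1 ran from -0.20 to 1.24 for DNAJA2, from -0.057 to 0.87 for DNAJC21 and from -1.06 to 0.012 for DNAJC22; each sign change came without the R2 vehicle library of that line, and DNAJC21 was also at -0.032 without its first bortezomib library. DNAJC22 in KO2 ran from -1.30 to 0.13 and DNAJC8 in the control line from -0.10 to 1.33, the sign change in each coming without that line's R2 vehicle library. DNAJB9 in the knockout lines with bortezomib ran from -1.14 to 0.21, above 0 without the R2 control library. None of these had passed without the block. In the mean of the lines without the block, DNAJA1 passed without the R1 vehicle library of KO1 (adjusted p = 0.042), and DNAJC14 passed with a pseudocount of 0.1 (0.049), without the first control vehicle library (0.041) and without the R1 vehicle library of KO1 (0.042). A common sum moved no median of all genes by over 0.1.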

Other observations

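A further 24 rows carry a DNAJA, DNAJB or DNAJC symbol without being protein-coding, as pseudogenes, antisense genes and long non-coding genes, and were left out of the family. Of these, 17 were at 0 in all libraries and 7 were above 0 in at least 1. The highest value was 0.997 FPKM, for DNAJC19P1 in the KO1 bortezomib R2 library. This pseudogene lies opposite DNAJC12, with 319 shared bases, and its mean over all libraries was 0.158 FPKM against 4.43 for DNAJC12.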
